A study of Mus musculus with 9 samples.

Results

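The 10 genes described here move calcium across membranes: the endoplasmic reticulum (ER) pumps Atp2a2 and Atp2a3, the plasma membrane pumps Atp2b1 and Atp2b4, the Golgi pump Atp2c1, the sodium-calcium exchanger Slc8a1, the inositol trisphosphate (IP3) receptors Itpr1, Itpr2 and Itpr3, and the ryanodine receptor Ryr2. They were picked by gene symbol for their function and not by a cut on their values, though earlier results of these data were known. Each symbol stood on a single line of a table of 56953 genes with a level in TPM (transcripts counted relative to all transcripts of the library), a unit that is already divided by transcript length. The 9 polyA RNA sequencing libraries came from primary cardiac fibroblasts of adult male wild-type C57BL/6N mice, obtained by enzymatic digestion of the heart and freed of cardiomyocytes by settling. All cultures, the controls included, were infected with an adenovirus at 1e+06 pfu/ml and harvested at 72 h. There were 3 libraries each from cells given Ad-GFP (control virus), Ad-JP2 (virus carrying junctophilin-2) and Ad-shJP2 (virus carrying a hairpin against junctophilin-2). The labels do not say whether the 3 libraries of a group came from separate cultures or animals, so the p-values measure only the spread between these libraries, which may be technical.

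A resting cell keeps calcium low in the cytosol by pumping it into the ER and the Golgi and out across the plasma membrane, and it signals by opening channels in the filled ER. Sarco/endoplasmic reticulum calcium ATPases (SERCA) refill the ER, plasma membrane calcium ATPases (PMCA) and the sodium-calcium exchanger export calcium, and the secretory pathway ATPase (SPCA) loads the Golgi. IP3 receptors release ER calcium after hormone receptors activate phospholipase C, the main route in fibroblasts, whereas ryanodine receptors dominate in muscle. Junctophilin-2 tethers the sarcoplasmic or endoplasmic reticulum to the plasma membrane, and in cardiomyocytes it holds ryanodine receptors opposite surface calcium channels.

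Jph2, the gene the viruses address, was at 132, 127.5 and 128 TPM in the Ad-GFP libraries, 737, 691 and 637 TPM in Ad-JP2, and 116.5, 123 and 119 TPM in Ad-shJP2. It was higher in Ad-JP2 (log2 fold change 2.40, SE 0.05, limma adjusted p = 3.07e-08), where viral and cellular message cannot be told apart. In the libraries labelled Ad-shJP2 its level did not differ past the threshold (limma adjusted p = 0.0724, log2 fold change -0.11, SE 0.05), and its sign turned when libraries were rescaled by the median of ratios (0.00, adjusted p = 0.993). It passed under quantile normalization (-0.13, adjusted p = 0.0243), and without Ad-JP2 replicate 1 (-0.11, adjusted p = 0.0297) or Ad-JP2 replicate 3 (-0.11, adjusted p = 0.018). It also passed when only the Ad-GFP and Ad-shJP2 libraries entered the fit (-0.11, adjusted p = 0.0165). The Jph2 message therefore gives little check of that label, and every direction below for these libraries rests on the label alone. Approximate depth was 40.4 to 45.6 M reads with Ad-GFP, 37.0 to 41.4 M with Ad-JP2 and 21.3 to 33.1 M with Ad-shJP2. The 11 fibroblast markers summed to 11411 to 11517 TPM with Ad-GFP, 11217 to 11982 with Ad-JP2 and 7531 to 7764 with Ad-shJP2. Most of this was Vim, with means of 7263, 7311 and 5022 TPM. The 14 cardiomyocyte markers summed to 47.8 to 49.7, 40.8 to 47.2 and 30.3 to 32.9 TPM, mostly from Tnnt2 and Nppa, with the sarcomere gene Ttn listed at 0 in every Ad-JP2 and Ad-shJP2 library. Macrophage markers reached 3570.4 to 3619, 3301 to 3359 and 4132 to 4199.6 TPM, so the cultures held messages of those cells too. Among them Lyz2 averaged 1730.2, 1556 and 2023 TPM, and the leukocyte gene Ptprc 0.592, 2.07 and 0.24 TPM. Endothelial markers summed to at most 49.8 TPM and pericyte and smooth muscle markers to at most 56.9 TPM in any library.

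Across the family of pumps and channels, most messages were highest with Ad-JP2 and lowest in the libraries labelled Ad-shJP2. In Ad-JP2 the genes Atp2a2, Atp2b1, Atp2c1, Slc8a1, Itpr1 and Itpr2 were higher than in Ad-GFP, by 1.11-fold to 2.69-fold in mean TPM. The same 6 genes and Atp2b4 were lower in Ad-shJP2, by 1.16-fold to 2.96-fold. Itpr3 went the other way, 1.35-fold higher in Ad-shJP2, and Atp2a3 passed in neither comparison. Ryr2 lay near the limit of detection in all libraries. For comparison, 13.4% of all tested genes were called higher in Ad-JP2 and 37.7% lower in Ad-shJP2. After a correction for GC content and length, given below, only Atp2b1 and Itpr2 stayed called in Ad-JP2. In Ad-shJP2 only Atp2c1, Slc8a1 and Itpr2 then stayed lower, and Itpr3 higher.

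**Figure D1:**
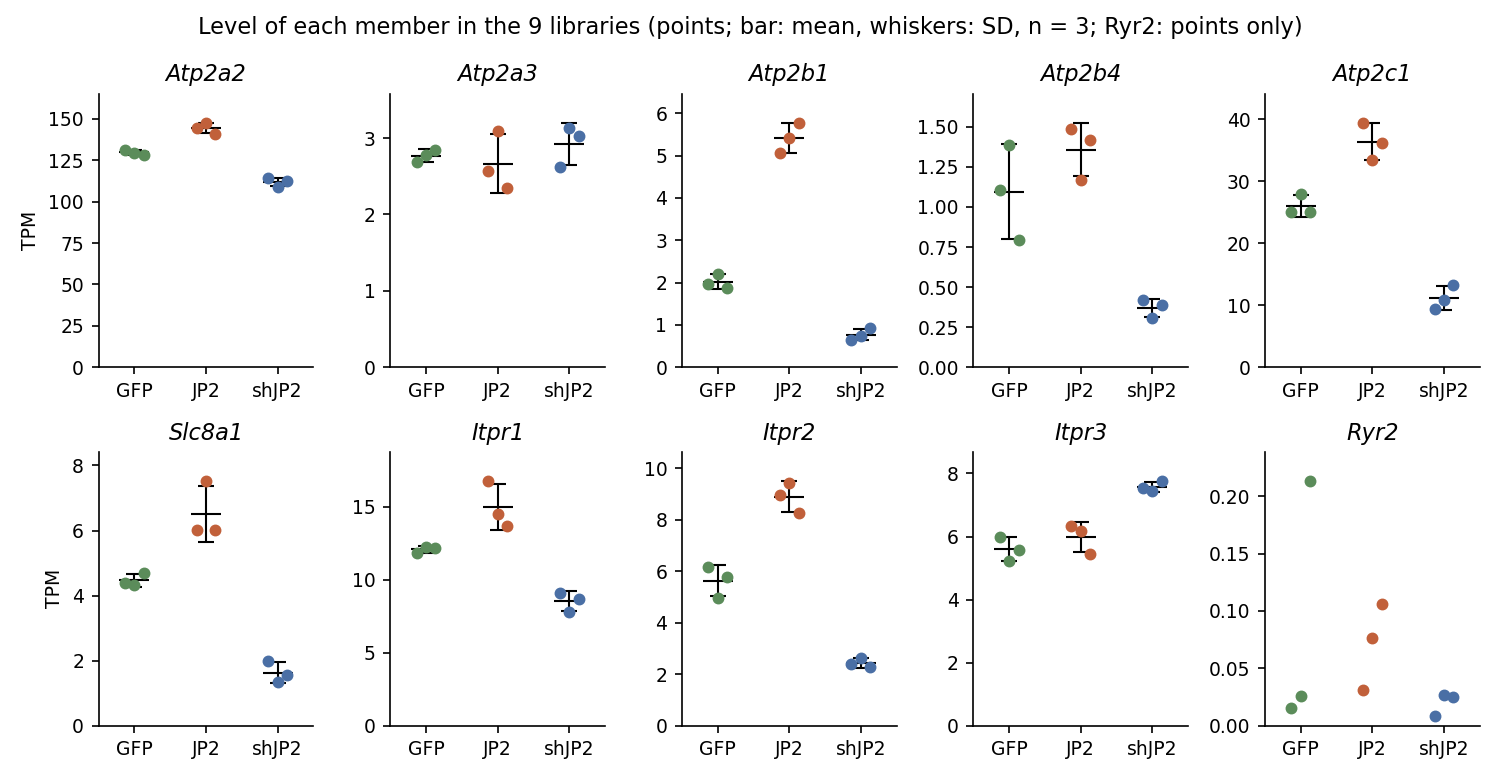
TPM of the 10 genes (1 panel each, linear axes from 0) in the 9 libraries by virus; points are libraries, bars the group means and whiskers the SD (n = 3), with points only for Ryr2. Atp2a2, Atp2b1, Atp2c1, Slc8a1, Itpr1 and Itpr2 step down from Ad-JP2 over Ad-GFP to Ad-shJP2 without overlap, and Itpr3 is highest in Ad-shJP2. Of all tested genes, 22.4% lie above Ad-GFP without overlap in Ad-JP2, and 40.9% below it in Ad-shJP2.

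Of the 10 genes, 9 reached 1 TPM in at least 3 libraries and could be tested. Against Ad-GFP, Ad-JP2 had 6 of the 9 higher and 0 lower at a limma adjusted p under 0.05, with a median log2 fold change of 0.29. The background was 13.4% of 14215 tested genes higher and 1.64% lower, with a median of 0.01, or 15% in either direction. The libraries of the 6 did not overlap (background 22.4% higher, 9.74% lower). The count fell to 3 with no filter on low values (27352 genes above 0 TPM in any library), and to 3 when Ad-GFP replicate 1 or Ad-GFP replicate 3 was left out. In the libraries labelled Ad-shJP2, 7 of the 9 were lower and 1 higher than in Ad-GFP, with a median of -0.60. There the background was 37.7% lower and 21.8% higher with a median of -0.11, or 59.4% in either direction, so most tested genes were called in this comparison. The 8 were also the genes whose libraries did not overlap (background 40.9% lower, 24.5% higher). Atp2b1 and Atp2b4 passed the filter through the other groups, since both stayed under 1 TPM in every Ad-shJP2 library. Quantile normalization gave 6 lower and 2 higher, and over all genes it turned a split of 3093 higher and 5353 lower into 4233 and 3849 (4157 and 4333 with median-of-ratios scaling, which moved the median of all genes by 0.10, quantile normalization by 0.14). For Ad-JP2, all genes split 1902 higher and 233 lower, or 1462 and 748 with quantile normalization. The comparisons share the Ad-GFP libraries, so opposite signs in both are not independent of each other. In the libraries labelled Ad-shJP2 the fibroblast markers were lower in 10 of 11 and higher in 1, and the macrophage markers higher in 10 and lower in 3 of 15 (3 higher and 6 lower after the correction for GC content described next); their part in the results was not tested. In bulk RNA, fewer cells of a type and less RNA per cell cannot be told apart.

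**Figure D2:**
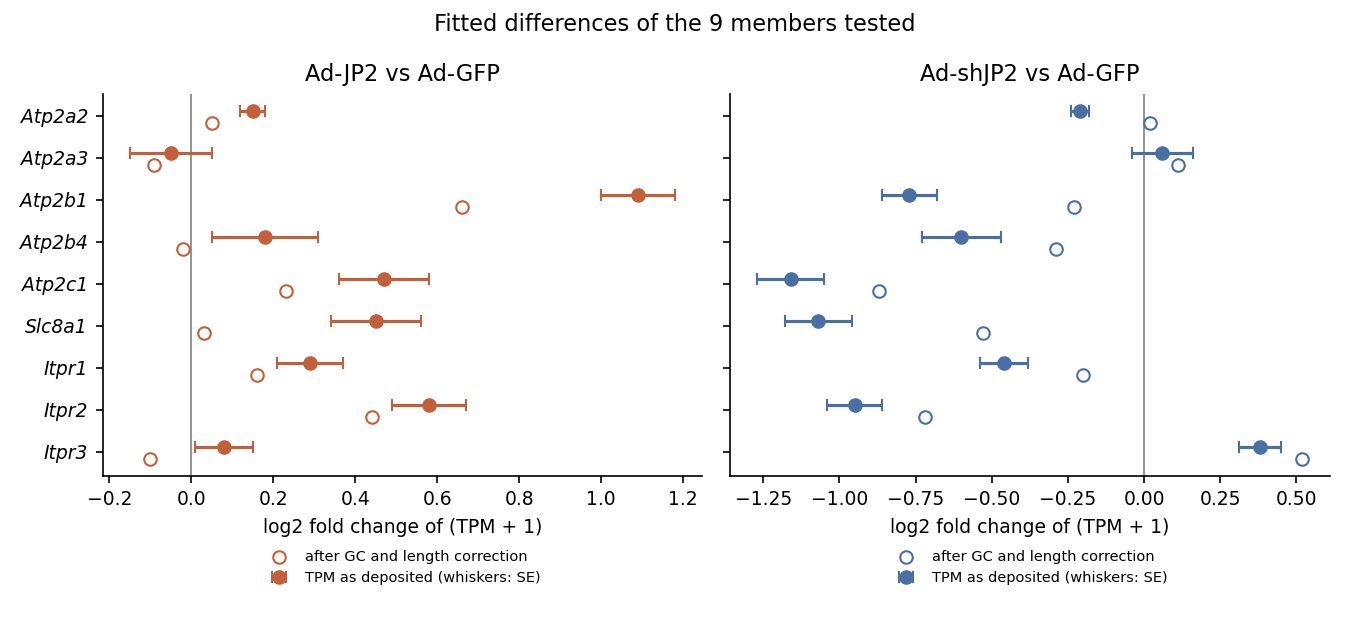
Log2 fold change of (TPM + 1) with its standard error for the 9 genes tested, each virus compared with the control virus. Atp2b1 has the largest rise in Ad-JP2 (1.09) and Atp2c1 the largest fall in Ad-shJP2 (-1.16), and Itpr3 alone is called higher in Ad-shJP2.

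Differences between these libraries varied with GC content, the share of G and C in a gene's transcripts. Among the 2809 tested genes lowest in GC content (31.2% to 45.2%), the median log2 fold change was 0.27 in Ad-JP2 and -0.43 in Ad-shJP2. They include Atp2b1 (43.6%), Slc8a1 (43.7%) and Atp2c1 (44.3%). The 2805 genes highest in GC content (55.6% to 76.3%) had medians of -0.03 and 0.02 and include Atp2a3 (57.1%) and Itpr3 (57.5%). Called differences of the 9 genes from Ad-GFP are therefore given below also after a correction for GC content and length. The uncalled ones stayed uncalled: Atp2a3 (-0.09 in Ad-JP2, 0.11 in Ad-shJP2), and in Ad-JP2 Atp2b4 (-0.02) and Itpr3 (-0.10). With the correction, 2 genes stayed higher in Ad-JP2 (Atp2b1 and Itpr2; background 15.8% higher, 3.19% lower), and the median of the 9 was 0.05 against 0.07 over all genes. In Ad-shJP2, 3 stayed lower (Atp2c1, Slc8a1 and Itpr2) and Itpr3 stayed higher (background 40.8% and 17.9%), with medians of -0.23 and -0.15.

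**Figure D3:**
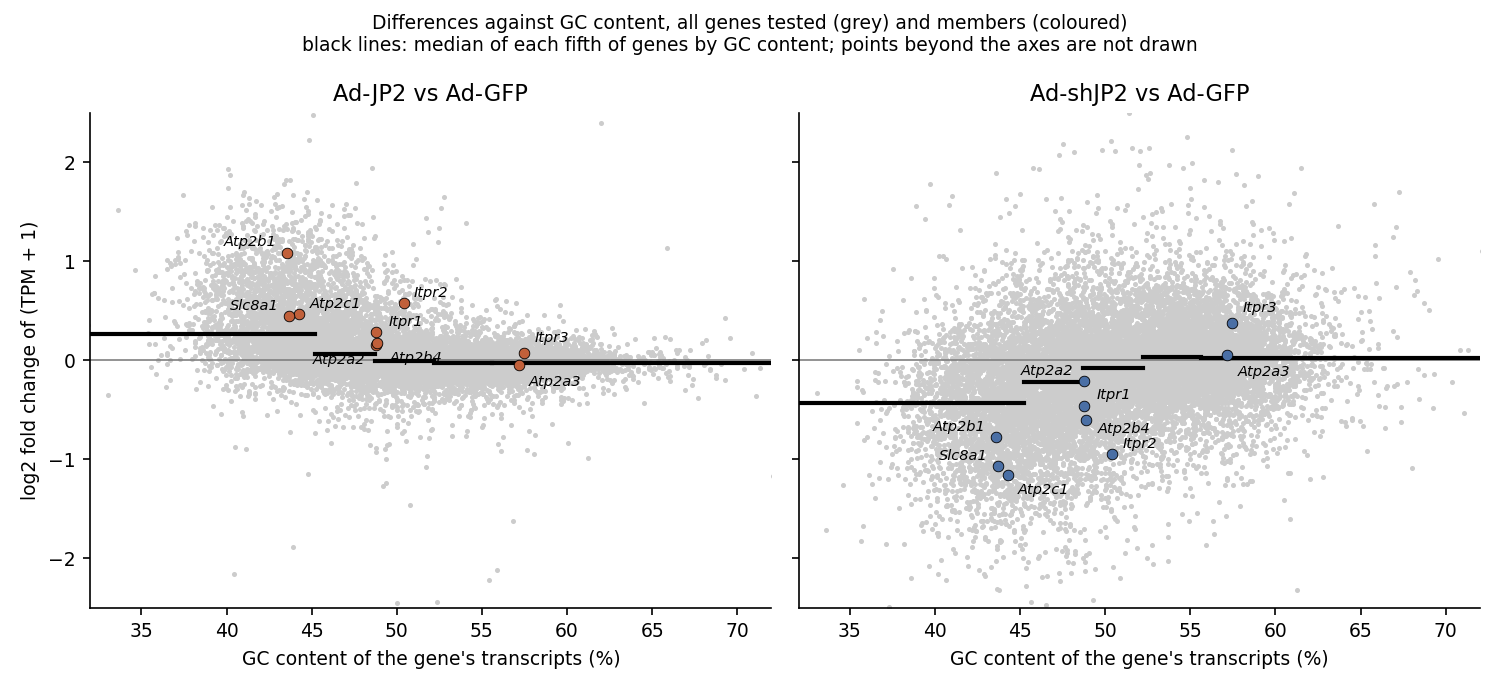
Log2 fold change of (TPM + 1) against the GC content of the transcripts (%), for tested genes (grey) and the 9 calcium genes (coloured); black lines are medians of 5 bins of genes by GC content. The genes of low GC content lie above 0 in Ad-JP2 (median 0.27) and below 0 in Ad-shJP2 (median -0.43), Atp2b1, Slc8a1 and Atp2c1 among them.

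Atp2a2 encodes SERCA2, the pump that refills the store in heart and in most other cells, and it was by far the most abundant of the 10 messages. It was at 132, 129.6 and 128 TPM in Ad-GFP, 145, 148 and 141 TPM in Ad-JP2, and 114, 109 and 113 TPM in Ad-shJP2. The 3 groups did not overlap, but the steps between them were small. The rise in Ad-JP2 was 1.11-fold (log2 fold change 0.15, SE 0.03, limma adjusted p = 0.0062) and the fall in Ad-shJP2 1.16-fold (-0.21, SE 0.03, adjusted p = 0.000188). Neither held after the GC correction, which gave 0.05 (adjusted p = 0.225) and, with the sign turned, 0.02 (adjusted p = 0.537). Median-of-ratios scaling left -0.10 in Ad-shJP2 (adjusted p = 0.0138).

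Atp2a3 encodes SERCA3, an ER pump known from blood and epithelial cells. Its level was 2.69, 2.77 and 2.85 TPM in Ad-GFP, 2.56, 3.10 and 2.34 TPM in Ad-JP2, and 2.62, 3.13 and 3.03 TPM in Ad-shJP2. All groups overlapped, and the differences from Ad-GFP were -0.05 (limma adjusted p = 0.844) and 0.06 (adjusted p = 0.649). Quantile normalization made the second a call (0.31, adjusted p = 0.0185). SERCA messages together came to 133 ± 1.52 TPM with Ad-GFP, 147 ± 3.58 with Ad-JP2 and 115 ± 2.38 with Ad-shJP2 (SD, n = 3). Atp2a2 made up 97.9%, 98.2% and 97.4% of these sums, and the muscle pump Atp2a1 was listed at 0 in all Ad-JP2 and Ad-shJP2 libraries.

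Atp2b1 encodes PMCA1, the plasma membrane pump found in nearly all tissues, and among the 9 genes it showed the largest difference in mean TPM ratio between Ad-JP2 and Ad-shJP2, without the GC correction. Its message was at 1.96, 2.21 and 1.87 TPM in Ad-GFP, 5.06, 5.41 and 5.77 TPM in Ad-JP2, and 0.653, 0.728 and 0.916 TPM in Ad-shJP2. Every Ad-JP2 library was above every Ad-GFP library, and every Ad-shJP2 library below. The mean was 2.69-fold higher in Ad-JP2 (log2 fold change 1.09, SE 0.09, limma adjusted p = 8.06e-05), and the call held after the GC correction (0.66, adjusted p = 0.00176). In Ad-shJP2 it was 2.63-fold lower (-0.77, SE 0.09, adjusted p = 0.000102), a call that the correction ended (-0.23, adjusted p = 0.0593). On the log2(TPM + 1) scale such low levels give smaller fold changes than the ratio of means. The approximate number of reads behind a value was 217 to 243 with Ad-GFP, 526 to 641 with Ad-JP2 and 40 to 86 with Ad-shJP2.

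RefSeq promoter windows (GRCm38.p6, the 250 bases before an annotated start, 5′ to 3′ on the gene's strand) were found for 8 of the 10 genes, with 2 entries each for Atp2b1 and Atp2c1. Those of Atp2b1 and Itpr2, which rose in Ad-JP2 also after the correction, are set beside those of Slc8a1, which fell in Ad-shJP2 after it, and Itpr3, which went the other way. Itpr2 and Atp2c1 also fell in Ad-shJP2 after the correction. Capitals mark GGGCGG (a GC box), GGAAA (the core bound by NFAT factors) and CACGTG (an E-box), on either strand.
Atp2b1, chr10:98914902-98915151, plus strand: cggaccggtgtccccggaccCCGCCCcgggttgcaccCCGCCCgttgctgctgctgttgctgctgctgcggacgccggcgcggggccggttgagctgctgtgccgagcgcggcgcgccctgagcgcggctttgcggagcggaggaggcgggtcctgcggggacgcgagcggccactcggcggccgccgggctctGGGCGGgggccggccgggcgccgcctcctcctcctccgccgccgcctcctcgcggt
Slc8a1, chr17:81738388-81738637, minus strand: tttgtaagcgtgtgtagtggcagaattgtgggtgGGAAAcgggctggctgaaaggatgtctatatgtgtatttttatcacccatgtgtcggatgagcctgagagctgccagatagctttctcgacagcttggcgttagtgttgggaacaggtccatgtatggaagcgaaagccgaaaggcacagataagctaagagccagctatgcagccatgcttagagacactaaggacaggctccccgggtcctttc
Itpr2, chr6:146502224-146502473, minus strand: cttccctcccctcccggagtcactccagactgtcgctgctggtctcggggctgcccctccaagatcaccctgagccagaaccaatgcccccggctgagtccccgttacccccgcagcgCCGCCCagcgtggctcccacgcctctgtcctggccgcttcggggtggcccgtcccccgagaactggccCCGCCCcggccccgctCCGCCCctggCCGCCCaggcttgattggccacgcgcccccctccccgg
Itpr3, chr17:27057054-27057303, plus strand: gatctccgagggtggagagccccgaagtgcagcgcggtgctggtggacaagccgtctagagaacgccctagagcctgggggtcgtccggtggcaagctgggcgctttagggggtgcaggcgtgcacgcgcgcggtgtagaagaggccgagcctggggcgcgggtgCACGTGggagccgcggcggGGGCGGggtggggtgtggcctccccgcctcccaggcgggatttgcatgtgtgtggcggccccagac
The Atp2b1 window lies in an intron between 2 annotated starts of that gene, and GENCODE annotates no exon base in any of the 4 printed. The other Atp2b1 entry, of which 94.4% is exon, is not printed and holds 4 GC boxes and 1 GGAAA. The 2 Atp2c1 entries are not printed either: 1 holds 1 GGAAA and no GC box (GC content 51.6%), the other 2 GC boxes and no GGAAA (70.8%). The GC content was 80.8% for Atp2b1, 74.4% for Itpr2, 72.0% for Itpr3 and 50.4% for Slc8a1, against a median of 52.4% over 32851 windows. In the printed windows GGGCGG occurred 3 times before Atp2b1, 4 times before Itpr2, 1 time before Itpr3 and not before Slc8a1, and 32.7% of all windows hold it. GGAAA occurred 1 time before Slc8a1 and in none of the other 3 printed, and 55.6% of windows hold it. Of the 4 printed, the Itpr3 window held the E-box, which is in 6.02% of all windows. These counts describe the letters of the windows, and no factor binding was measured.

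Atp2b4 encodes PMCA4, the other plasma membrane pump with a message at these levels. It stood at 1.11, 1.39 and 0.795 TPM in Ad-GFP, 1.49, 1.17 and 1.42 TPM in Ad-JP2, and 0.419, 0.305 and 0.386 TPM in Ad-shJP2. Ad-JP2 overlapped Ad-GFP (limma adjusted p = 0.452, log2 fold change 0.18, SE 0.13), whereas all Ad-shJP2 libraries lay below both. The fall in Ad-shJP2 was 2.96-fold (-0.60, SE 0.13, adjusted p = 0.00276). It did not hold after the GC correction (-0.29, adjusted p = 0.0644) or quantile normalization (-0.35, adjusted p = 0.0503). These are the smallest of the tested levels, with about 44 to 61 reads per Ad-shJP2 library.

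The make-up of the plasma membrane pumps differed with the virus. Their summed level was 3.17 ± 0.43 TPM with Ad-GFP, 6.79 ± 0.367 with Ad-JP2 and 1.15 ± 0.156 with Ad-shJP2 (SD, n = 3). Atp2b1 took 63.8% ± 3.06 of the sum with Ad-GFP, 79.8% ± 2.60 with Ad-JP2 and 66.2% ± 5.33 with Ad-shJP2, so only Ad-JP2 stood apart from the other groups. The level of Atp2a2 was 42.4 times that of Atp2b1 and Atp2b4 together with Ad-GFP (36.0 to 48.2 over libraries), 21.4 times with Ad-JP2 (19.6 to 22.4) and 99.5 times with Ad-shJP2 (86.5 to 106). The ranges of the 3 groups did not overlap. All of these values are without the GC correction. After it, Atp2a2 (0.02), Atp2b1 (-0.23) and Atp2b4 (-0.29) were not called in Ad-shJP2. In Ad-JP2 only Atp2b1 of them stayed called (0.66).

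Atp2c1 encodes SPCA1, which loads calcium and manganese into the Golgi, and it was the runner-up in level to Atp2a2 in every group. It was at 25.0, 28.0 and 25.1 TPM in Ad-GFP, 39.4, 33.5 and 36.1 TPM in Ad-JP2, and 9.39, 10.9 and 13.3 TPM in Ad-shJP2. No library of a group reached into another group. The fall in Ad-shJP2 was 2.33-fold (log2 fold change -1.16, SE 0.11, limma adjusted p = 2.2e-05) and held after the GC correction (-0.87, adjusted p = 0.000176). The rise in Ad-JP2 was 1.40-fold (0.47, SE 0.11, adjusted p = 0.0225). It was lost after the correction (0.23, adjusted p = 0.201), with no filter on low values (adjusted p = 0.0547), and without Ad-GFP replicate 1 (0.0803), Ad-GFP replicate 3 (0.078), Ad-JP2 replicate 1 (0.0813) or Ad-JP2 replicate 3 (0.0593). Its paralog Atp2c2 was listed at 0 in all 9 libraries.

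Slc8a1 encodes NCX1, which exports a calcium ion in exchange for sodium and is abundant in cardiomyocytes. The fibroblast libraries held 4.39, 4.33 and 4.71 TPM with Ad-GFP, 6.00, 7.51 and 6.01 TPM with Ad-JP2, and 1.99, 1.35 and 1.55 TPM with Ad-shJP2. The 3 groups were again separate. In Ad-shJP2 the message was 2.75-fold lower (log2 fold change -1.07, SE 0.11, limma adjusted p = 4.23e-05), and the GC correction left -0.53 (adjusted p = 0.0028). The 1.45-fold rise in Ad-JP2 (0.45, SE 0.11, adjusted p = 0.0279) came to 0.03 after the correction (adjusted p = 0.863). That call was also lost without any single Ad-GFP library (adjusted p of 0.0875, 0.0914 and 0.0595 without replicates 1, 2 and 3) or without Ad-JP2 replicate 2 (0.0988), and with quantile normalization (0.0987). The cardiomyocyte markers given above fell alongside it in Ad-shJP2, with 4 of 5 tested called lower, and their part in the result was not tested. The 4 were Tnnt2 (-0.46), Nppa (-0.62), Actc1 (-1.07) and Myl7 (-0.47, not called under median-of-ratios scaling or quantile normalization).

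Itpr1 encodes the IP3 receptor isoform that is most abundant in brain. Its level was 11.8, 12.2 and 12.2 TPM in Ad-GFP, 16.7, 14.5 and 13.7 TPM in Ad-JP2, and 9.11, 7.81 and 8.68 TPM in Ad-shJP2. It was the most abundant of the 3 receptors in every library. The fall in Ad-shJP2 was 1.41-fold (log2 fold change -0.46, SE 0.08, limma adjusted p = 0.00104) and missed the threshold after the GC correction (-0.20, adjusted p = 0.0519). The 1.24-fold rise in Ad-JP2 (0.29, SE 0.08, adjusted p = 0.0459) was the weakest call of the 6. It was lost after the correction (0.16, adjusted p = 0.195), under quantile normalization (0.129) and under median-of-ratios scaling (0.054). It was lost too without any single Ad-GFP library (0.133, 0.104 and 0.111 without replicates 1, 2 and 3), Ad-JP2 replicate 1 (0.13) or 2 (0.0934), or Ad-shJP2 replicate 3 (0.0649).

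Itpr2 encodes the isoform with the highest affinity for IP3, which is the main one in cardiomyocytes. It was at 6.18, 4.97 and 5.76 TPM in Ad-GFP, 8.98, 9.44 and 8.25 TPM in Ad-JP2, and 2.39, 2.64 and 2.29 TPM in Ad-shJP2. The groups did not overlap. With a GC content of 50.4%, equal to the median of all tested genes, it was the only gene of the 10 whose calls against Ad-GFP held in both directions after the GC correction. The rise in Ad-JP2 was 1.58-fold (log2 fold change 0.58, SE 0.09, limma adjusted p = 0.00225), with 0.44 after the correction (adjusted p = 0.00983). The fall in Ad-shJP2 was 2.31-fold (-0.95, SE 0.09, adjusted p = 2.02e-05), with -0.72 after it (adjusted p = 0.000112).

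Itpr3 encodes the isoform typical of epithelia and secretory cells. It was at 5.98, 5.24 and 5.58 TPM in Ad-GFP, 6.34, 6.17 and 5.43 TPM in Ad-JP2, and 7.54, 7.44 and 7.75 TPM in Ad-shJP2. Ad-GFP and Ad-JP2 overlapped (limma adjusted p = 0.585, log2 fold change 0.08, SE 0.07), and the Ad-shJP2 libraries lay above both. The rise in Ad-shJP2 was 1.35-fold (0.38, SE 0.07, adjusted p = 0.00198), and it was 0.52 after the GC correction (adjusted p = 0.000138), 0.61 under quantile normalization and 0.48 under median-of-ratios scaling.

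The IP3 receptors together came to 23.3 ± 0.781 TPM with Ad-GFP, 29.9 ± 2.36 with Ad-JP2 and 18.5 ± 0.595 with Ad-shJP2 (SD, n = 3). The shares of Itpr2 and Itpr3 in that sum differed between the groups, with no overlap of libraries. They were close to each other in Ad-GFP, at 24.1% ± 1.84 and 24.0% ± 0.846. In Ad-JP2 Itpr2 held 29.8% ± 1.68 and Itpr3 20.0% ± 0.384, and in Ad-shJP2 Itpr2 held 13.2% ± 1.37 and Itpr3 40.9% ± 1.11. The share of Itpr1 moved less, from 51.9% ± 2.63 in Ad-GFP to 50.1% ± 2.01 in Ad-JP2 and 46.0% ± 2.13 in Ad-shJP2.

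**Figure D4:**
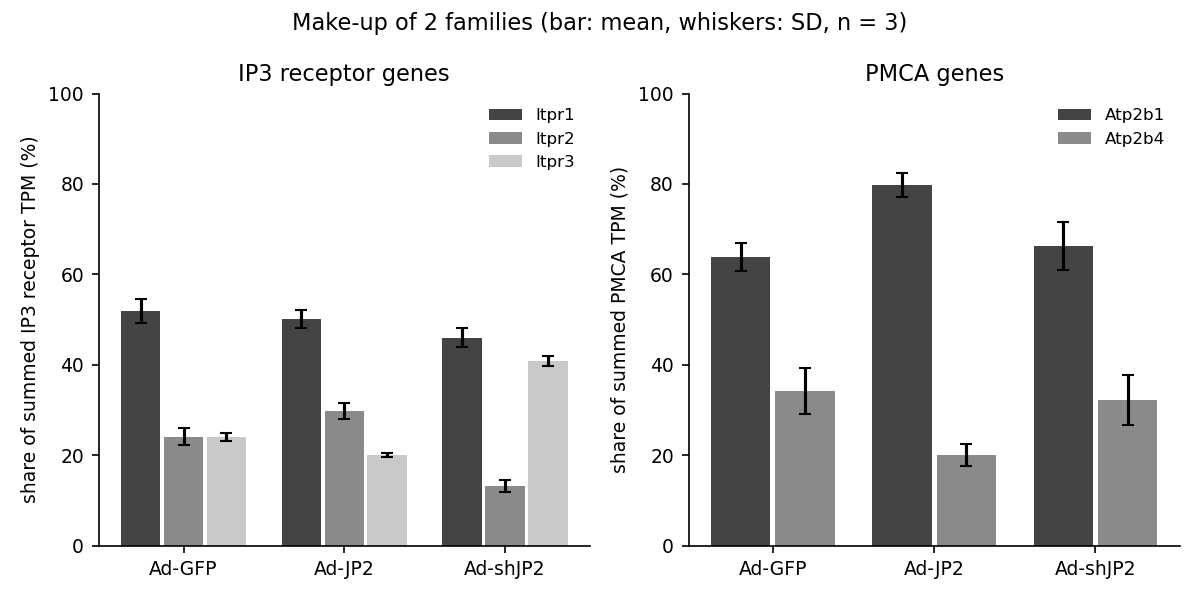
Share (%) of each gene in the summed TPM of its family, for the plasma membrane pumps and the IP3 receptors, by virus (mean and SD, n = 3; Atp2b2 and Atp2b3, with mean shares of at most 1.58%, are left out). Itpr3 goes from 24.0% in Ad-GFP to 40.9% in Ad-shJP2 as Itpr2 goes from 24.1% to 13.2%, and Atp2b1 reaches 79.8% in Ad-JP2. Shares are without the GC correction.

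Ryr2, the release channel of the cardiomyocyte, was close to the detection limit. It was listed at 0.015, 0.026 and 0.213 TPM in Ad-GFP, 0.031, 0.076 and 0.106 TPM in Ad-JP2, and 0.008, 0.027 and 0.025 TPM in Ad-shJP2. These correspond to about 1 to 10, 1 to 5 and 0 to 1 reads. A level of 3 reads would be up to 0.0672, 0.0762 and 0.12 TPM in the 3 groups, so 7 of the 9 values were at or under the level of their group and no fold is given. Ad-GFP replicate 3 and Ad-JP2 replicate 3 stood above it. Ryr1 averaged 0.025, 0.0447 and 0.072 TPM, and Ryr3 was listed at 0 in every library, so of the IP3 and ryanodine receptors the former held nearly all of the message.

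TPM allows the levels of the 10 genes to be set in order. In Ad-GFP the order of mean TPM was Atp2a2 (129.8), Atp2c1 (26), Itpr1 (12.1), Itpr2 (5.63), Itpr3 (5.60), Slc8a1 (4.48), Atp2a3 (2.77), Atp2b1 (2.01), Atp2b4 (1.10) and Ryr2 (0.0847). Among neighbours, the libraries of Itpr2 and Itpr3 overlapped and those of the other pairs did not. In Ad-JP2 the order after Itpr2 (8.89) was Slc8a1 (6.51), Itpr3 (5.98), Atp2b1 (5.42) and Atp2a3 (2.67), where libraries of Slc8a1 and Itpr3 overlapped, as did those of Itpr3 and Atp2b1. In Ad-shJP2, Itpr3 (7.58) and Atp2a3 (2.93) stood ahead of Itpr2 (2.44) and Slc8a1 (1.63), with libraries of Atp2a3 and Itpr2 overlapping. The 10 messages summed to 189.6 ± 1.93 TPM with Ad-GFP, 227 ± 5.76 with Ad-JP2 and 147 ± 3.69 with Ad-shJP2 (SD, n = 3). The deposited gene lengths behind these levels ranged from 13% of the longest GENCODE transcript for Ryr2 and 30.1% for Slc8a1 to 100% for Itpr3, so the order between genes depends on the transcripts the quantification used.

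A direct comparison of the overexpression and hairpin libraries gave 7 genes higher and 1 lower in Ad-JP2 of the 9 tested, against a background of 40.3% and 24.1%, or 64.4% in either direction. Libraries of these 8 did not overlap (background 41.7% higher, 25.4% lower). Without the GC correction Atp2b1 differed most, 7.07-fold (log2 fold change 1.86, SE 0.09, limma adjusted p = 2.17e-07). Slc8a1 was 4.00-fold, Itpr2 3.65-fold, Atp2b4 3.67-fold and Atp2c1 3.25-fold higher, Itpr1 1.76-fold and Atp2a2 1.29-fold. Itpr3 was 1.27-fold lower (-0.30, adjusted p = 0.00642). Atp2b1 and Atp2b4 passed the filter through the other groups, with about 40 to 86 and 44 to 61 reads per Ad-shJP2 library. After the GC correction Atp2a2 (0.03, adjusted p = 0.33) and Atp2b4 (0.27, adjusted p = 0.076) were no longer called, while Itpr2 (1.16) and Atp2c1 (1.10) exceeded Atp2b1 (0.89), with Slc8a1 at 0.56, Itpr1 at 0.36 and Itpr3 at -0.62 (background 48.6% higher, 17.7% lower). Over all genes the split was 5731 higher and 3421 lower, 4735 and 4634 under median-of-ratios scaling, 4026 and 5570 under quantile normalization and 6816 and 2479 after the correction.

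Genes whose 9 values followed the same course were sought by the Euclidean distance of log2(TPM + 1), centred on the Ad-GFP mean, among 8605 tested genes. The nearest to Atp2b1 were Esyt2 (distance 0.337), which tethers the ER to the plasma membrane, the deubiquitinase gene Usp25 (0.352) and the cyclin gene Ccng1 (0.372). Mean levels of Esyt2 were 15.7 TPM with Ad-GFP, 38.2 with Ad-JP2 and 8.56 with Ad-shJP2. GC content was 43.9% for Esyt2, 47.2% for Usp25 and 39.5% for Ccng1, against 43.6% for Atp2b1. The nearest to Atp2a2 were B2m (0.0699), the zinc transporter gene Slc39a6 (0.0881) and the proteasome subunit gene Psmd12 (0.0957). Their GC contents were 41.2%, 50.2% and 46.2%, against 48.7% for Atp2a2. The nearest to Itpr3 were Arhgef1 (0.13), Pgp (0.146) and Edc4 (0.16), with GC contents of 60.2%, 56.5% and 56.0%.

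Other calcium genes, regulators of these pumps and channels among them, were described through 8 lists with 108 genes, of which 82 could be tested. In Ad-JP2, 14 were higher and 3 lower than in Ad-GFP with a median log2 fold change of 0.02. In Ad-shJP2, 16 were higher and 42 lower with a median of -0.22, or 21 and 32 under quantile normalization and 25 and 34 under median-of-ratios scaling. After the GC correction the counts were 18 higher and 7 lower with Ad-JP2, and 13 and 43 with Ad-shJP2. The counts for Ad-JP2 dropped to 11 calls in all without Ad-GFP replicate 2 or without Ad-JP2 replicate 2. The shares of all tested genes without the correction, for comparison, were 13.4% higher and 1.64% lower with Ad-JP2, and with Ad-shJP2 21.8% higher and 37.7% lower. After the GC correction the shares were 15.8% higher and 3.19% lower with Ad-JP2, and 17.9% higher and 40.8% lower with Ad-shJP2. The first set is the background of each single list below without the correction, the second that of its corrected counts. Splits of all genes under the other scalings are given above.

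The calcium-binding proteins of the ER lumen, which hold the stored calcium, fell in Ad-shJP2 in 9 of 11 tested, with none higher (10 lower after the GC correction). Hsp90b1, the ER chaperone GRP94, was at 59.2 ± 1.53 TPM with Ad-GFP, 174 ± 10.7 with Ad-JP2 and 16.3 ± 0.774 with Ad-shJP2 (SD, n = 3). Its log2 fold changes were 1.54 (SE 0.05, limma adjusted p = 7.6e-07) and -1.80 (SE 0.05, adjusted p = 1.26e-08), and 1.25 and -1.46 after the correction. Hspa5, the chaperone BiP, was at 426 ± 2.39, 548 ± 12 and 171 ± 8.19 TPM, with changes of 0.36 and -1.32 (0.34 and -1.26 after the correction). In Ad-JP2 3 of the 11 rose, the third being Rcn2 (0.11, adjusted p = 0.0282), which did not hold after the correction (-0.02, adjusted p = 0.65). Among SERCA regulators and pump subunits, 1 was higher and 2 lower of 6 in Ad-JP2, and 2 were higher and 2 lower in Ad-shJP2. After the correction these counts were 2 higher and 0 lower, and 0 higher and 4 lower. Of these Canx, a lectin chaperone that binds SERCA2, was at 146 ± 0.394, 231 ± 2.56 and 58.0 ± 9.06 TPM (0.66 and -1.32, and 0.31 and -0.90 after the correction).

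Among regulators of the IP3 and ryanodine receptors, 15 of 23 tested were lower and 5 higher in Ad-shJP2, and 5 were higher and 0 lower in Ad-JP2. After the GC correction 15 were lower and 2 higher in Ad-shJP2, and 6 higher and 4 lower in Ad-JP2. Itprid2, named for its IP3 receptor-interacting domain, rose in Ad-JP2 (0.35, limma adjusted p = 0.0012) and fell in Ad-shJP2 (-1.12, adjusted p = 1.52e-07), with 0.23 and -0.88 after the correction. Itpripl2 fell from 138 ± 1.31 to 44.6 ± 0.905 TPM in Ad-shJP2 (-1.61, adjusted p = 4.87e-09; -1.38 after it). Itprip, whose product binds IP3 receptors and lowers their calcium release, went the other way, from 37.5 ± 0.117 to 76.7 ± 2.04 TPM (1.01, adjusted p = 2.77e-08; 1.00 after it). The apoptosis inhibitor Bcl2 (0.63) and the cGMP-dependent kinase Prkg1 (0.50) were called in Ad-JP2 and were not after the GC correction (adjusted p of 0.109 and 0.514).

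Other channels and exchangers of calcium stores moved in both directions, as did all tested genes in Ad-shJP2 (37.7% lower, 21.8% higher). Pkd2, polycystin-2, a calcium-permeable channel of the ER and cilium, was at 27.1 ± 0.356 TPM with Ad-GFP, 39.2 ± 1.45 with Ad-JP2 and 7.97 ± 0.607 with Ad-shJP2 (0.52 and -1.65, limma adjusted p = 0.000294 and 3.73e-08), and the GC correction left 0.32 and -1.30. The potassium channels TRIC-A and TRIC-B, which balance charge during release, split in Ad-shJP2: Tmem38a rose (0.71, adjusted p = 3.77e-05) and Tmem38b fell (-0.64, adjusted p = 3.54e-05), with 0.46 and -0.41 after the correction. The mitochondrial sodium-calcium exchanger Slc8b1 rose in Ad-shJP2 from 8.58 ± 0.36 to 13.5 ± 1.95 TPM (0.59, adjusted p = 0.000421; 0.46 after it). The release and leak channels counted 4 lower and 1 higher of 10 there, with the 2 others being the lysosomal channel Tpcn1 (-0.29) and the translocon subunit Sec61a1 (-0.13), both named after their values were seen. The Sec61a1 call was lost under median-of-ratios scaling (-0.02, adjusted p = 0.6). The other pumps and exchangers counted 2 lower and 1 higher of 4. The 2 lower were the potassium-dependent exchangers Slc24a3 (-0.47) and Slc24a5 (-0.42), which missed the threshold under quantile normalization (adjusted p of 0.108 and 0.188). After the GC correction Slc24a3 held (-0.53) and Slc24a5 did not (-0.29, adjusted p = 0.0628).

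Genes of the production and removal of IP3, the ligand of the receptors, counted 2 higher and 0 lower of 14 in Ad-JP2 and 4 higher and 6 lower in Ad-shJP2 (5 and 4 after the correction). Over all tested genes, without the correction, 13.4% were higher and 1.64% lower in Ad-JP2, and 21.8% higher and 37.7% lower in Ad-shJP2. Genes of this list called in Ad-shJP2 that act in the removal of IP3 or of its products, named after their values were seen, were Itpkb, Inpp5b and Inpp1 (lower) and Inpp5a (higher). All of the lower calls were lost under quantile normalization (limma adjusted p of 0.227, 0.437 and 0.604). Inpp5b and Inpp1 were lost under median-of-ratios scaling too (0.0662 and 0.112), and Inpp1 after the GC correction (0.199). The phospholipase C gene Plcb4 rose from 0.859 ± 0.206 to 3.28 ± 0.572 TPM in Ad-JP2 (1.20, SE 0.16, limma adjusted p = 0.00102; 0.89 after the correction). It reached the filter through Ad-JP2, with a mean of 0.724 TPM in Ad-shJP2. Gnaq, the G protein that activates the beta type of the enzyme, was called as well (0.34) but not after the GC correction (0.16, adjusted p = 0.237). In Ad-shJP2 the phospholipase C genes Plcd3 (0.65, adjusted p = 4.94e-05) and Plcb3 (0.61, adjusted p = 4.92e-06) rose, while Gnaq fell (-0.78, adjusted p = 5.41e-05). The correction left 0.55, 0.63 and -0.46.

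**Figure D5:**
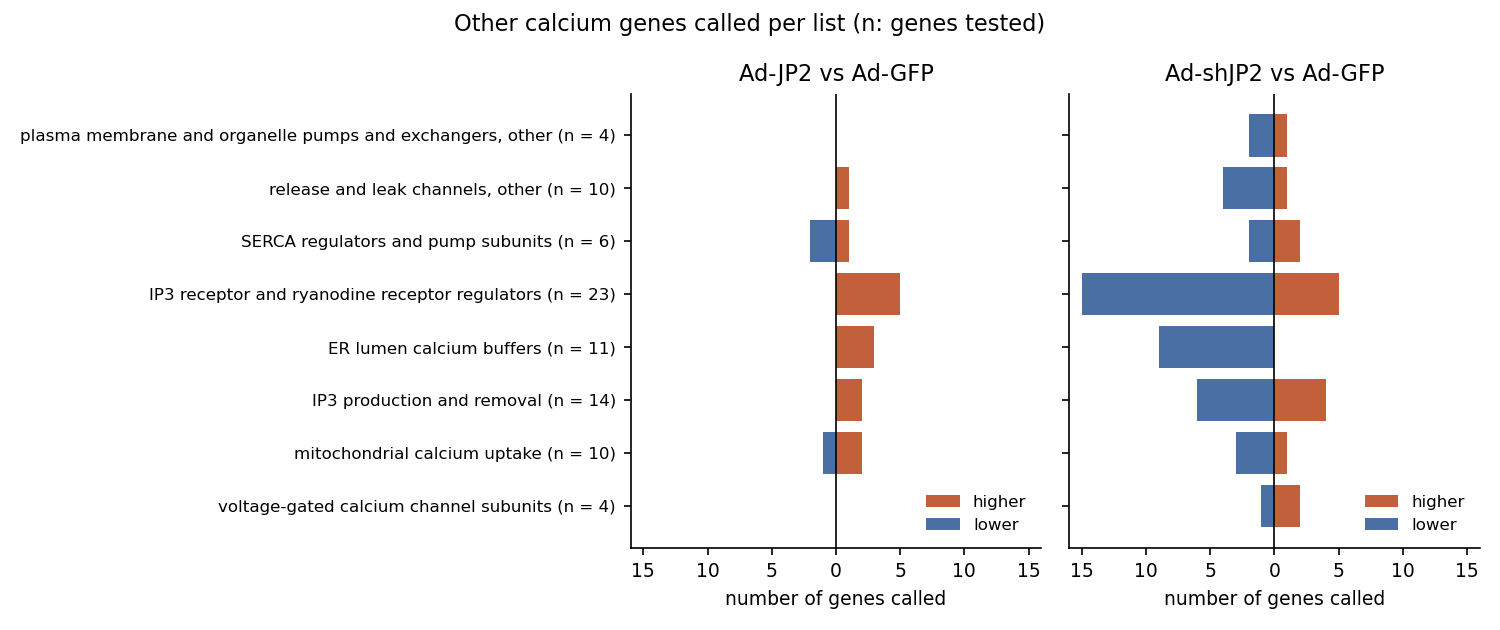
Number of genes called higher (to the right of 0) and lower (to the left) at a limma adjusted p under 0.05, in each of the 8 lists of other calcium genes, with each virus compared with Ad-GFP. The bars to the left in Ad-shJP2 are longest for the receptor regulators (15 of 23) and the ER lumen buffers (9 of 11). Over all tested genes 37.7% were lower and 21.8% higher in Ad-shJP2, and 1.64% lower and 13.4% higher in Ad-JP2.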

How the data were processed

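The deposited values were TPM per gene with 2 columns of lengths in bases, per the file headers. GRCm39, Salmon, DRAGEN and DESeq2 are named in the submitters' processing notes; roles and versions: not given in the sources used here. Depth in reads was estimated from the steps of low TPM values times the effective length, is approximate and covers counting error only: 95.2% of low genes lay within 0.1 of a whole read in Ad-GFP replicate 3 and 40.1% to 60.9% in the other 8. The members and gene lists were chosen with earlier results of these data known.

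Tested were the 14215 genes that reached 1 TPM in 3 or more libraries, as log2(TPM + 1) with limma 3.58.1 in R 4.3.3, in one fit of 3 group means with a mean-variance trend. P-values are two-sided, from moderated tests, with Benjamini-Hochberg adjustment over all genes tested, separately in each of 3 comparisons; an adjusted p under 0.05 was a call. Folds are ratios of mean TPM. The GC correction subtracted from each library a spline of its differences from the gene mean on GC content and log length (GENCODE M21, GRCm38; 14025 genes). Alternatives changed the pseudocount to 0.1, the filter to none or 5 TPM, the scaling (median of ratios, quantile), the replicates entered, the block and the groups fitted. An exact permutation test of 3 against 3 libraries cannot go below p = 0.1. Scripts were tested on simulated data. The correction used natural splines with 5 degrees of freedom.

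Named genes were the 10 members, Jph2, for each list and comparison at most 3 called genes (mean TPM of 1 or more) in order of absolute change, and the 3 nearest genes to Atp2b1, Atp2a2 and Itpr3 (mean TPM of at least 5). Paralogs and marker genes with values were added after these were seen. Erln and Arln matched no symbol. Promoter windows came from RefSeq's GRCm38.p6 table and were searched on both strands; Atp2a2 and Itpr1 had no entry.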

Additional observations from a re-analysis of the deposited data

How the results depend on the processing

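Of the values of single members under other settings, 127 kept their side of the threshold and 33 lost a call in Ad-JP2 against Ad-GFP; 6 of the 127, for the uncalled Atp2a3, Atp2b4 and Itpr3, turned sign. In Ad-shJP2 against Ad-GFP 150 kept their side, 7 lost a call, 1 gained a call and 2 turned sign, and in Ad-JP2 against Ad-shJP2 155, 4, 1 and 0. The sign turned for Atp2a2 in Ad-shJP2 after the GC and length correction (0.02, limma adjusted p = 0.537) and with the replicate block added to it (0.02, adjusted p = 0.577). Members called in Ad-JP2 numbered 6, and 3 with no filter on low values, 2 after the GC and length correction and 2 with the replicate block and the correction. Leaving out each library in turn gave 3 to 6. Members called in Ad-shJP2 numbered 8, with 4 after the correction, 4 with block and correction, and 8 to 8 without each library. The other calcium genes called in Ad-JP2 numbered 17, and 11 to 17 without each library. The cause of these losses was not tested. Same-numbered libraries did not deviate together (correlations -0.113 to 0.11 over 9 pairs, own number the best match in 5 of 18), so the numbers were not taken as pairs. The replicate block alone gave 4 members called in Ad-JP2 (Slc8a1 adjusted p = 0.0676, Itpr1 0.0604) and 8 in both other comparisons, and over all genes 1929, 8226 and 9009 calls against 2135, 8446 and 9152. At a filter of 5 TPM, Atp2a3 and Atp2b4 were not tested. The shallower Ad-shJP2 libraries limit Atp2b1, Atp2b4 and Ryr2, with as few as 40, 44 and 0 approximate reads.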

Other observations

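Genes of mitochondrial calcium uptake, a sink for calcium released from the ER, counted 3 lower and 1 higher of 10 in Ad-shJP2 and 2 higher and 1 lower in Ad-JP2. After the GC correction the counts were 3 lower and 3 higher, and 2 higher and 1 lower. Without it, the shares over all tested genes were 37.7% lower and 21.8% higher in Ad-shJP2. In Ad-JP2 they were 13.4% higher and 1.64% lower. The 3 uptake genes called in Ad-JP2, named after their values were seen, were Micu3 (0.77), Mcur1 (0.33) and Smdt1 (-0.12, with its sign turned after the correction, 0.10). Micu3 passed the filter through Ad-JP2 (1.23 TPM, against 0.306 with Ad-GFP and 0.28 with Ad-shJP2). The Mcur1 call in Ad-JP2 was lost after the correction (0.18, limma adjusted p = 0.228), under quantile normalization (adjusted p = 0.164) and without any single Ad-GFP or Ad-JP2 library. Mcur1, a regulator of the uniporter, fell in Ad-shJP2 from 7.83 ± 0.228 to 3.05 ± 0.461 TPM (log2 fold change -1.13, limma adjusted p = 6.66e-06), and Micu2, a gatekeeper subunit, fell from 46.2 ± 1.17 to 28.6 ± 1.14 TPM (-0.67, adjusted p = 2.73e-06). Mcub, the dominant-negative pore subunit, rose from 97.5 ± 3.76 to 139.5 ± 5.21 TPM (0.51, adjusted p = 7.53e-05; 0.26 after the GC correction). Among voltage-gated calcium channel subunits 2 were higher and 1 lower of 4 in Ad-shJP2, and all 3 calls were lost after the correction: Cacna2d1 (-0.38, then -0.08), Cacnb1 (0.28, then 0.08) and Cacnb3 (0.26, then 0.09). Bsg, a glycoprotein partner of plasma membrane pumps, was 0.20 higher in Ad-shJP2 and -0.09 after the correction, while its relative Nptn was lower under both (-0.42 and -0.31).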
